A study of Mus musculus with 50 samples.

Results

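The genes described here are 36 mouse genes of neutrophil granules and neutrophil maturation, taken from a list of symbols and matched to the Ensembl identifiers of a table of 48526 genes. All 36 were found. They were split into 4 early granule genes (Mpo, Elane, Prtn3 and Ctsg) and 32 later genes, and read library by library in 50 RNA-seq libraries of microglia, the resident macrophages of the brain, sorted by flow cytometry. Neutrophils are made in the bone marrow, and in the fetus in the liver, from dividing promyelocytes. Promyelocytes make the azurophil granules, whose myeloperoxidase and serine proteases are transcribed at that stage and little afterwards. Secondary and tertiary granule proteins such as lactoferrin and the gelatinases are transcribed later, and mature cells carry Ly6G, the chemokine receptor CXCR2 and much of the calgranulin pair S100A8 and S100A9.

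All mice carried loxP sites in Hdac1 and Hdac2, the genes of a pair of class I histone deacetylases (genotype HDAC1/2-loxP/loxP). Constitutive knockouts also carried CX3CR1-Cre and received no treatment. They were sampled with their controls as newborns (P0), at 14 days (2 weeks) and at 45 days (6 weeks). Inducible knockouts carried CX3CR1-CreERT2. They and their controls came from dams injected with 3 mg tamoxifen on embryonic day 13, and the first of their 4 ages was embryonic day 16 (E16), followed by the ages just named. Controls of both models had no Cre, so an effect of the deletions and one of carrying the Cre allele cannot be told apart. Cx3cr1 is active in microglia, in other brain macrophages and in blood monocytes, so the deletions need not be limited to microglia. Each library is named by its animal number. Each of the 14 groups had 4 libraries, except that there were 3 for the constitutive knockouts of P0 and 6 weeks, the knockouts of E16 and the inducible controls of P0, and 2 for the constitutive knockouts of 2 weeks. Nothing in the labels pairs animals across groups, and animals older than newborns were perfused before sorting.

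Library totals were 11050277 to 29651179 counts. The summed level of 12 homeostatic microglia genes was 22142 to 70554 counts per 1000000 of the library total (CPM) over all control libraries. At constitutive P0 and 2 weeks neither Hdac1 nor Hdac2 passed the test of knockout against control. Some libraries labelled knockout stood against their label in Hdac1, Hdac2 or both. Hdac1 was at 35.7 CPM in constitutive P0 library 68 (controls 11.4 to 13.6) and at 92.2 CPM in constitutive 6-week library 380 (controls 13.4 to 16.6). Hdac2 was at 191 CPM in the same library 68 and at 137 CPM in constitutive P0 library 76 (controls 126 to 164). It was at 70.1 CPM in constitutive 2-week library 89 (controls 59.8 to 71.3) and at 316 CPM in E16 library 1 (controls 133 to 165). In inducible 6-week knockout 6 Hdac1 also lay within the controls in CPM, with 253 of 18802446 counts against 347 of 27211406 in control 5. Hdac2 had 575 counts there, below the 1004 to 1800 of the controls. Counts are over whole genes, so transcripts that lack only the floxed exons can still be counted. Cx3cr1 counts, not scaled for library size, lay below all controls in each of these libraries. They were 6105 in library 68 and 1340 in library 76 (controls 40550 to 60383), and 39828 in library 89 (controls 79589 to 139660). They were 59498 in library 380 (controls 84739 to 193804) and 3632 in E16 library 1 (controls 54346 to 63333). In inducible 6-week knockout 6 they were 68101 (controls 118652 to 204944). Why Cx3cr1 and the targeted genes differ there was not tested. E16 library 1 also held 13344 CPM of erythroid genes, against 746 to 1542 CPM in the other E16 libraries. Counts of members called in comparisons that use these libraries are given with and without them, except where leaving 1 out leaves 1 knockout.

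The promoters of 8 members that the results turn on are printed here, to show where short motifs of granulocyte factors lie in early and in later genes. RefSeq promoter sequences (GRCm38.p6) matched 32 of the 36 members. Cebpe, Rab44, Mmp9 and Hp were not matched. The 250 bases before each start were searched on both strands for TTGCNNAA (C/EBP factors), GAGGAA (PU.1) and TGTGGT (RUNX factors). TTGCNNAA was found in 0 of the 4 early genes and in 12 of the 28 later genes with a sequence, and in 9.56% of all 32851 promoters. GAGGAA was found in 4 of the 4 early genes and in 14 of the 28 later genes, and in 23.3% of all promoters. TGTGGT was found in 1 early and 3 later genes, and in 14.05% of all promoters. A match is a description of the letters only. Each sequence runs 5′ to 3′ in the gene's direction and ends at the RefSeq start. If the window holds exon bases of the same gene in the GENCODE vM21 annotation of that build, it ends before the first of them. The annotated Prtn3 gene starts upstream of its window, at 79874476, so that stretch lies within the gene. Matches are in capitals, and those on the opposite strand appear as their reverse complement. No matches overlap in the sequences shown. The early granule genes come first.
Mpo (chr11:87793534-87793580, plus strand): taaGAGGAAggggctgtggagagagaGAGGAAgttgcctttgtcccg
Elane (chr10:79886062-79886246, plus strand): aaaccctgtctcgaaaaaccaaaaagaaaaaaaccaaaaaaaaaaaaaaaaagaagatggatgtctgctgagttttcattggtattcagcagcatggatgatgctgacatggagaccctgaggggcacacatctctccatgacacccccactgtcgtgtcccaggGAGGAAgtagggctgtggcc
Prtn3 (chr10:79879417-79879613, plus strand): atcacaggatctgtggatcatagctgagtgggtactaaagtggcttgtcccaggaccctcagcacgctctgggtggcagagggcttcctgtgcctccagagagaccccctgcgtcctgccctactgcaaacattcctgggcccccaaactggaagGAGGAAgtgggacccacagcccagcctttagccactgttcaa
Ctsg (chr14:56102575-56102824, minus strand): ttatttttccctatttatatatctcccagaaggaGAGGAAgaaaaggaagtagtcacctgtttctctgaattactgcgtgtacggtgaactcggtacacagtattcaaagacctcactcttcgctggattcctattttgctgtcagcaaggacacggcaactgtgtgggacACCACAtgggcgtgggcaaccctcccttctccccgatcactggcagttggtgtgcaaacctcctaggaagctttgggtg

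In these windows GAGGAA begins 247 and 224 bases before the RefSeq start in Mpo, 85 bases before it in Elane, 95 in Prtn3 and 216 in Ctsg, each on the gene's own strand. Ctsg also holds TGTGGT on the opposite strand. The later genes below encode lactoferrin of the secondary granules (Ltf), the neutrophilic granule protein (Ngp), a calgranulin (S100a9) and a resistin-like protein (Retnlg), and their levels relative to one another are described further on.
Ltf (chr9:111019042-111019270, plus strand): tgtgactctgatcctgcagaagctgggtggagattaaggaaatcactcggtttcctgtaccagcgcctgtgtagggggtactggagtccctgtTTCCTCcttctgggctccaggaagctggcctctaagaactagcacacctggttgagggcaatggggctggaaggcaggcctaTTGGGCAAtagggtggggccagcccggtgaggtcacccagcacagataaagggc
Ngp (chr9:110419558-110419746, plus strand): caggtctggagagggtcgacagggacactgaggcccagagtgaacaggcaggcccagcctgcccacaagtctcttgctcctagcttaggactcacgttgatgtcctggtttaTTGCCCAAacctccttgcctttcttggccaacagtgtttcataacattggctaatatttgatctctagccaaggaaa
S100a9 (chr3:90695722-90695971, minus strand): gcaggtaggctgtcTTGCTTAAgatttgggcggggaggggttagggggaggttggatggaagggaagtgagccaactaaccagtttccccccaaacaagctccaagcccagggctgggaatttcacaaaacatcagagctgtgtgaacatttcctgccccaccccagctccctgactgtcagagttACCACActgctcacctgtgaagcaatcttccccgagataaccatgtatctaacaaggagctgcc
Retnlg (chr16:48872358-48872607, plus strand): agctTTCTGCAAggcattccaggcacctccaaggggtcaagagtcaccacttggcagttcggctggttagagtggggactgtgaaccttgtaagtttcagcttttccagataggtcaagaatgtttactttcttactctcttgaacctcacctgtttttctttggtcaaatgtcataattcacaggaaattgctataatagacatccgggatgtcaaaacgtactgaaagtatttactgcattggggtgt

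TTGCNNAA begins 75 bases before the start in Ltf and 246 bases before it in Retnlg, on the opposite strand in both. It begins 138 bases before the start in Ngp and 236 bases before it in S100a9, on the genes' own strand. Ngp holds it again 11 bases before the start, past the stretch printed. Ltf also holds GAGGAA, and S100a9 TGTGGT, on the opposite strand. Several members are neighbours in the genome. Elane (chromosome 10, 79886247 to 79888215) follows Prtn3 (chromosome 10, 79874476 to 79883174), and S100a8 (chromosome 3, 90668978 to 90670035) lies near S100a9 (chromosome 3, 90692632 to 90695721). Camp (chromosome 9, 109847379 to 109849617), Ngp (chromosome 9, 110419747 to 110423012) and Ltf (chromosome 9, 111019271 to 111042767) are on 1 chromosome.

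Over the 50 libraries the early genes summed to 0 to 227 CPM and the later genes to 481 to 62423 CPM. The sum of the later genes separated knockouts from controls without overlap at each constitutive age, and it overlapped between them at each inducible age. In a bulk library, a different number of cells of a type and a different amount of RNA per cell cannot be told apart, which holds for every result here.

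**Figure D1:**
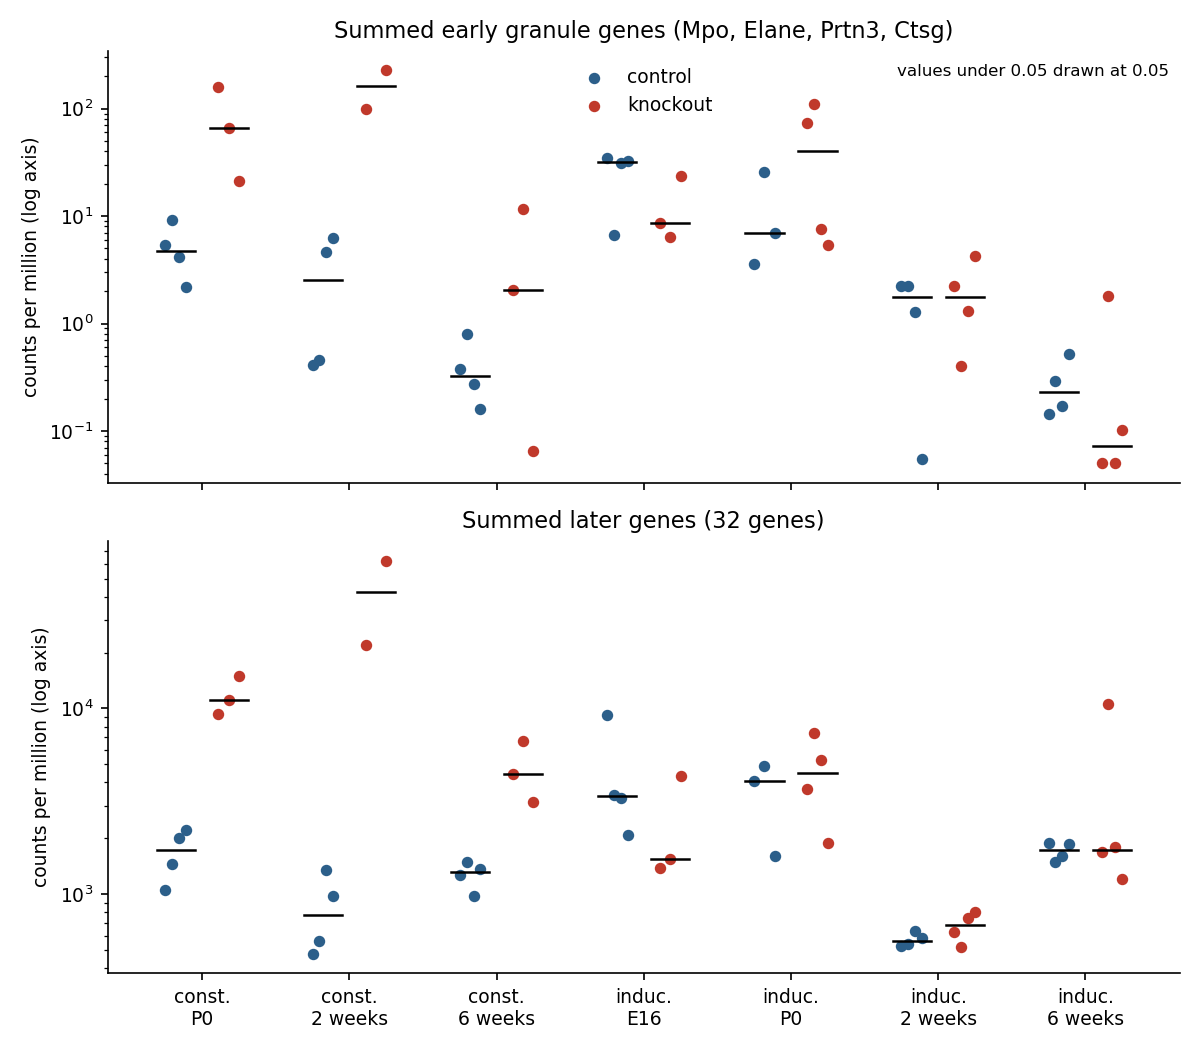
Summed level of the 4 early granule genes (top) and the 32 later genes (bottom) in each library, in CPM on a log axis, by model and age (blue control, red knockout, bar the median). Constitutive knockouts have 9359 to 14867 (P0), 21825 to 62423 (2 weeks) and 3138 to 6697 CPM (6 weeks) of later genes, above all their controls, and library 6 of the inducible 6-week knockouts stands alone at 10531 CPM.

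At constitutive P0 both early and later genes were higher in the knockouts. Mpo, which encodes myeloperoxidase, was at 3.40, 4.47, 1.67 and 1.05 CPM in controls 69, 70, 71 and 74, and at 102, 39.7 and 11.2 CPM in the libraries labelled knockout 68, 73 and 76. Elane (neutrophil elastase) was at 0.0804 to 2.90 CPM in the controls and at 30.2, 12.8 and 4.61 CPM in the same knockouts. Prtn3 (proteinase 3) was at 1.04 to 1.73 CPM in the controls and at 18.9, 12.1 and 5.02 CPM in the knockouts. Each of these genes was highest in library 68 and lowest in library 76 among the knockouts, and none overlapped between groups. The same held for Ctsg (cathepsin G), at 0 to 0.555 CPM in the controls and at 8.36, 1.77 and 0.650 CPM in the knockouts. On the log2 scale, with the standard error of the fit after the ± sign, Mpo rose by 3.90 ± 0.65 (edgeR quasi-likelihood test with Benjamini-Hochberg adjustment, adjusted p = 0.000825) and Elane by 3.64 ± 0.81 (0.00442). Prtn3 rose by 2.76 ± 0.44 (edgeR, adjusted p = 0.000617) and Ctsg by 3.75 ± 0.99 (0.0108).

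Most later genes did not follow that order. Among the same knockouts library 76 was the highest in 26 of 32 later genes and library 68 the lowest in 25. S100a9, which with S100a8 makes the cytosolic calprotectin dimer, was at 198, 267, 429 and 483 CPM in controls 69, 70, 71 and 74 and at 2278, 2724 and 3287 CPM in knockouts 68, 73 and 76. Ltf was at 48.5 to 152 CPM in the controls and at 602, 760.1 and 994 CPM in the knockouts. Ngp was at 74.9 to 262 CPM in the controls and at 1047, 1244 and 2101 CPM in the knockouts. Library 76, the lowest of the 3 in each early gene, was the highest of the 3 in each of these later genes. The early genes amounted to 17.1, 5.95 and 1.44 counts per 1000 counts of the later genes in knockouts 68, 73 and 76, and to 0.978 to 6.27 in the controls.

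**Figure D2:**
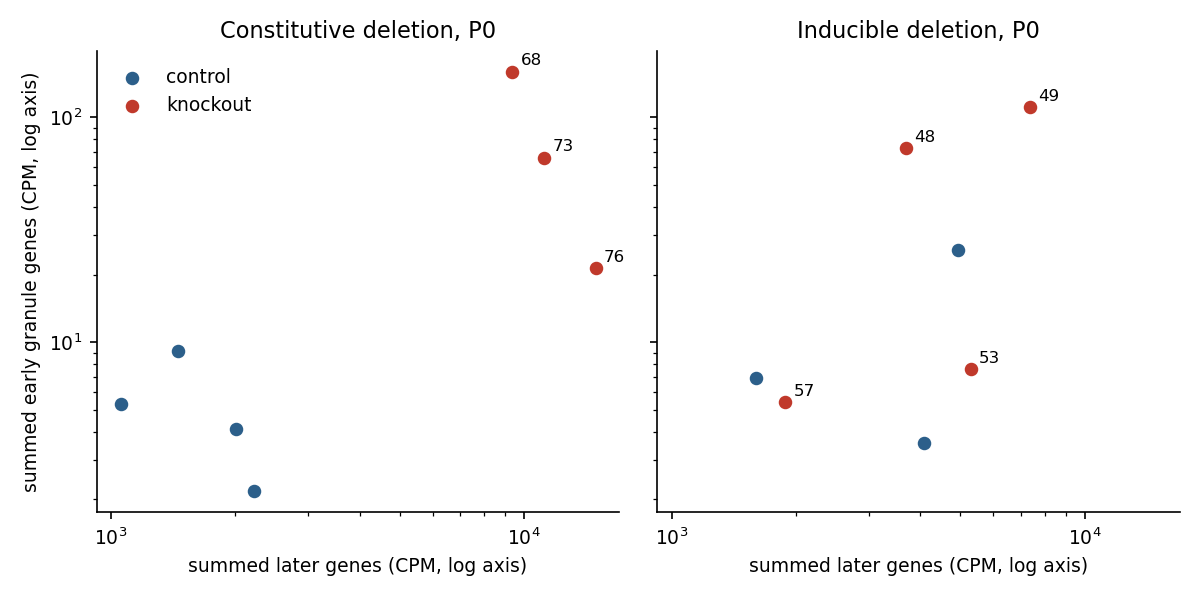
Summed early granule genes against summed later genes at P0, each library a point, both axes in CPM on a log scale, with animal numbers beside the knockouts (constitutive left, inducible right). In the constitutive panel the knockouts lie above the controls on both axes. Library 68 has 159.6 CPM of early and 9359 CPM of later genes, and library 76 has 21.4 and 14867 CPM.

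Of all 18411 genes tested at constitutive P0, 21.4% were called higher in the knockouts and 20.2% lower (edgeR, adjusted p under 0.05). Of the members 35 were tested, 34 were higher and 0 were lower, with a median log2 change of 2.64 against 0.04 over all genes tested. In CPM none of the 36 members overlapped between groups, nor did 54.5% of all genes with a mean of at least 1 CPM. Ctsg, Gfi1 and Mrgpra2b reached the minimum level for testing only in knockout libraries, so that for them being tested already required a difference. Mrgpra2a was not tested. All 12 later granule genes rose, by 2.25 ± 0.32 (Camp) to 2.89 ± 0.38 (Chil3). Retnlg rose by 2.82 ± 0.23 (edgeR, adjusted p = 2.05e-05), Mmp9, a gelatinase of tertiary granules, by 2.45 ± 0.21 (2.13e-05) and Anxa1, which encodes annexin A1, by 2.57 ± 0.23 (2.40e-05). S100a8 rose by 2.51 ± 0.28, S100a9 by 2.65 ± 0.28, Ltf by 2.41 ± 0.31 and Ngp by 2.57 ± 0.37.

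Both transcription factor genes rose at constitutive P0. Cebpe, which drives the secondary granule program, was at 0.208 to 0.896 CPM in the controls and at 6.06, 5.04 and 5.49 CPM in knockouts 68, 73 and 76, a rise of 2.89 ± 0.45. Gfi1, a repressor needed for granulocyte differentiation, was at 0.0630 to 0.563 CPM and at 1.0003, 2.32 and 1.24 CPM, a rise of 1.96 ± 0.67 (edgeR, adjusted p = 0.0363). The call of Gfi1 was lost in each fit that left out 1 library, except the one without control 74. Without library 68, which stands against its label in both targeted genes, 32 members were called higher, and Ctsg and Gfi1 were not. In that fit 3193 of all 18762 genes tested were higher. Ctsg was not called without control 71 either. Without library 76, 33 members were called higher, against 3241 of all 18766 genes tested.

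Of the 12 surface receptor genes at constitutive P0, 10 rose. Ly6g, the antigen used to identify mouse neutrophils, was at 0.971 to 3.17 CPM in the controls and at 13.5, 19.4 and 25.3 CPM in knockouts 68, 73 and 76, a rise of 2.79 ± 0.38. Cxcr2, the receptor that draws neutrophils to CXC chemokines, was at 42.1 to 58.2 CPM in the controls and at 125, 145 and 216 CPM in the knockouts. Its log2 change, 1.38 ± 0.20, was the smallest among the members called. Rab44, a large Rab GTPase, was at 0.724 to 1.67 CPM in the controls and at 14.3, 13.4 and 44.3 CPM in the knockouts, a rise of 4.03 ± 0.50. Csf3r, the receptor for the granulocyte growth factor G-CSF, did not pass. It was at 132 to 173 CPM in the controls and at 190.1, 200.1 and 204 CPM in the knockouts, without overlap before scaling, and its scaled log2 change was 0.00 ± 0.14 (edgeR, adjusted p = 0.986). The scaling factors of the groups differ by 0.36 on the log2 scale here, and CPM values are not scaled by them.

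Genes of other cell types moved in the same libraries at constitutive P0. All 12 homeostatic microglia genes fell, and their sum was 27229 to 33463 CPM in the controls and 2828 to 6647 CPM in the knockouts. All 7 neuron genes rose, with sums of 716 to 1572 CPM in the controls and 2552 to 3197 CPM in the knockouts, and so did the 7 erythroid genes tested, with sums of 587 to 1072 and 2188 to 2922 CPM. Of 10 monocyte genes 6 rose and 0 fell, with sums of 889 to 1127 CPM in the controls and 1869.8 to 2712 CPM in the knockouts. Of 7 border macrophage genes 6 fell. The part of these genes in the change of the members was not tested.

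Other neutrophil genes, kept in separate lists, did not all follow the members at constitutive P0. Of 13 other late neutrophil genes 11 rose, among them Asprv1 (2.81 ± 0.22) and Stfa2 (2.60 ± 0.22). Of 11 tested genes of neutrophil migration 8 rose, among them Fpr1, a formyl peptide receptor (2.79 ± 0.25), and 2 fell. Of 6 phagocyte oxidase genes, which microglia express too, 1 rose and 4 fell, such as Cyba (-1.68 ± 0.20) and Ncf1 (-1.45 ± 0.19). Of 8 tested genes of other early granule proteins and granule processing 4 rose, such as Serpinb1a (2.34 ± 0.28), and 3 fell, such as Ctsc, the protease that activates granule serine proteases (-1.21 ± 0.17). Of 11 transcription factors of granulocyte development 3 rose, such as Mxd1 (1.75 ± 0.16), and 4 fell, such as Irf8, a factor of the monocyte and microglia lineage (-1.87 ± 0.22).

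At 2 weeks the constitutive knockouts had the highest sums of later genes in the series. The 36 members took 0.0481 to 0.135% of all counts in the controls, 2.19% in knockout 80 and 6.26% in the library labelled knockout 89. Ltf was at 18.6, 22.8, 188 and 103 CPM in controls 77, 78, 81 and 83, and at 2977 and 10069.5 CPM in knockouts 80 and 89. Ngp was at 28.4, 33.4, 237 and 146 CPM in the controls and at 5078 and 15711 CPM in the knockouts. Controls 81 and 83 lay above controls 77 and 78 in both genes, and both knockouts lay above all controls. S100a8 was at 21.4 to 124 CPM in the controls and at 3226 and 7729.9 CPM in the knockouts. S100a9 was at 25.8 to 163 CPM in the controls and at 4129.6 and 10284 CPM in the knockouts.

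The early genes rose there as well. Mpo was at 0.305, 0.288, 3.33 and 4.79 CPM in controls 77, 78, 81 and 83 and at 57.5 and 105 CPM in knockouts 80 and 89. Elane was at 0 to 0.975 CPM in the controls and at 25.2 and 89.004 CPM in the knockouts. Prtn3 was at 0.102 to 0.377 CPM in the controls and at 10.1 and 26.9 CPM in the knockouts. Neither knockout overlapped a control in these genes. Ctsg was at 0 to 0.163 CPM and at 6.29 and 5.71 CPM, Cebpe at 0.0576 to 0.565 CPM and at 10.9 and 39.1 CPM, and Gfi1 at 0 to 0.0628 CPM and at 0.743 and 4.11 CPM. Library 89 was the higher knockout in every gene of this paragraph except Ctsg. The early genes made up 4.53 and 3.64 counts per 1000 counts of later genes in knockouts 80 and 89, within the 0.818 to 6.36 of the controls.

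The background at constitutive 2 weeks was 24.4% of 15017 genes called higher and 17.8% called lower (edgeR). Of 35 members tested 34 were higher and 1 was lower, with a median log2 change of 6.49 against 0.00 over all genes. Mrgpra2a was not tested. Prtn3, Ctsg, Cebpe, Gfi1, Mrgpra2b and Clec4d reached the minimum level for testing only in knockout libraries. For these 6 genes being tested already required a difference, and they enter the count and the median just given. The same limit holds for their changes and adjusted p-values below. The early genes rose by 5.34 ± 1.05 (Mpo), 7.09 ± 1.05 (Elane), 6.40 ± 0.57 (Prtn3) and 6.79 ± 0.70 (Ctsg). Cebpe rose by 6.503 ± 0.71 and Gfi1 by 6.09 ± 0.997. Ltf rose by 6.33 ± 1.33, Camp, the precursor of the antimicrobial peptide cathelicidin, by 6.63 ± 1.14 and Ngp by 6.58 ± 1.26. S100a8 rose by 6.49 ± 1.08, S100a9 by 6.51 ± 1.12, Ly6g by 6.48 ± 0.83, Cxcr2 by 3.49 ± 0.57 and Rab44 by 6.80 ± 0.48. Clec4d, a C-type lectin receptor (6.81 ± 0.55, adjusted p = 2.03e-05, edgeR), Mrgpra2b (5.66 ± 0.75, 0.000307) and Trem1, an activating receptor (6.63 ± 0.71, 0.000625), had the smallest adjusted p-values of the other members.

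With the library labelled knockout 89 left out, Ltf, Camp, Ngp, S100a9 and Mpo were among the members that lost their calls at constitutive 2 weeks. That fit has 1 knockout, which is assumed to vary as the controls do, so no count of members is given from it. Without control 83 Ltf, Anxa1, Chil3, Hp and Lcn2 lost their calls. The fit without knockout 80 also has 1 knockout, and no count is given from it either. Csf3r was the 1 member that fell, from 329 to 402 CPM in the controls to 186 and 263 CPM in knockouts 80 and 89, a log2 change of -0.67 ± 0.18 (edgeR, adjusted p = 0.0156). It was called lower in each fit that left out 1 library.

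In the same 2-week libraries 11 of 12 homeostatic microglia genes fell, with sums of 64230.1 to 70554 CPM in the controls and 22484 to 33409 CPM in the knockouts. All 10 monocyte genes rose, with sums of 18.9 to 41.4 CPM in the controls and 1265 and 2833 CPM in knockouts 80 and 89. All 7 border macrophage genes and all 8 mitosis genes rose too. The neuron genes summed to 4.06 and 3.41 CPM and the erythroid genes to 1.37 and 1.81 CPM in the knockouts, and none of the 5 and 4 of them tested rose. The part of these genes in the change of the members was not tested. All 13 other late neutrophil genes rose, among them Olfm4, a secondary granule gene of a subset of neutrophils (4.92 ± 0.39), and all 6 phagocyte oxidase genes rose, such as Rac2 (1.79 ± 0.30) and Ncf4 (2.12 ± 0.35). All 8 tested genes of other early granule proteins and granule processing rose, such as Srgn, which encodes the granule proteoglycan serglycin (3.94 ± 0.14), and Ctsc (2.04 ± 0.14).

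At 6 weeks the later genes were higher in the constitutive knockouts by smaller amounts. Ltf was at 104, 152, 76.6 and 118 CPM in the controls and at 675, 954 and 442 CPM in the knockouts, the middle value being the library labelled knockout 380. In the same order, S100a9 was at 97.4 to 156 CPM in the controls and at 640.4, 1198 and 529 CPM in the knockouts. Ngp was at 119.5 to 189 CPM in the controls and at 818, 1382 and 613 CPM in the knockouts. Library 380 was the highest in each of these genes, and no knockout overlapped a control. S100a8 was at 70.2 to 116 and at 376.3, 836 and 381 CPM, Camp at 25.1 to 47.8 and at 155, 333 and 143 CPM, and Ly6g at 0.506 to 3.276 and at 15.1, 19.8 and 9.11 CPM.

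The early genes had too few counts at this age for the filter of the edgeR test. Mpo was at 0 to 0.306 CPM in the controls and at 0.411, 6.25 and 0 CPM in the knockouts, in the order above. Elane was at 0 to 0.250 CPM in the controls and at 1.15, 3.85 and 0 CPM in the knockouts. In each of the 4 early genes the knockouts overlapped the controls and library 380 had the highest value. Prtn3 was at 0 to 0.306 and at 0.49297, 1.28 and 0 CPM, and Ctsg at 0 to 0.0625 and at 0, 0.335 and 0.0651 CPM. A count of 0 still allows 3 counts, which is 0.195 CPM in the last of these knockouts (counting error only).

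Of all 14428 genes tested at constitutive 6 weeks 6.76% were higher and 5.24% lower (edgeR). Of the 27 members tested, all of them later genes, 20 were higher and 0 were lower, with a median log2 change of 2.58 against -0.01 over all genes. The 12 later granule genes and both calgranulins were among those higher, Ltf by 2.57 ± 0.29, Camp by 2.48 ± 0.34, Ngp by 2.53 ± 0.26, S100a8 by 2.40 ± 0.31 and S100a9 by 2.56 ± 0.29. Retnlg, by 2.96 ± 0.28 (edgeR, adjusted p = 4.34e-05), Lcn2, the siderophore-binding lipocalin, by 2.60 ± 0.26 (0.000311), and Ifitm6 by 2.68 ± 0.38 (0.00110) had the smallest adjusted p-values of the other members. Ly6g rose by 2.99 ± 0.51, and Cd177, Clec4e, Anxa1 and Lrg1 were called higher too. Cebpe, at 2.15 ± 0.68 (adjusted p = 0.0648), Rab44, at 3.27 ± 1.198 (0.124), Cxcr2, at 1.66 ± 0.99 (0.382), and Csf3r, at -0.12 ± 0.13 (0.679), did not pass by edgeR, and neither did Il1r2, Ceacam10 and Padi4. Gfi1, Trem1, Mrgpra2a, Mrgpra2b and Clec4d did not reach the filter of this fit. DESeq2 called 26 members higher, with Elane, Gfi1, Clec4d, Trem1, Il1r2 and Padi4 added, against 7.28% of all genes, and edgeR called Elane too without the last of the 3 knockouts. Without library 380, 18 members were higher, against 660 of all 14717 genes tested. The call of Hp was lost in 6 of the 7 fits that left out 1 library, and that of Chil3 in 2 of them, and both were lost without the filter. That of Fcnb was lost without library 380 and with all 14 groups in 1 fit.

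In the 6-week libraries 3 of 12 homeostatic microglia genes fell, with sums of 64236 to 69964 CPM in the controls and 46201 to 60014 CPM in the knockouts. Of 10 monocyte genes 2 rose, with sums of 26.2 to 99.4 CPM in the controls and 666, 456 and 67.5 CPM in the knockouts. In the same order the knockouts had 4433, 6697 and 3138 CPM of later genes, against 982 to 1493 CPM in the controls. Of 7 border macrophage genes 5 rose, such as Mrc1, the mannose receptor (3.98 ± 0.23). The part of the monocyte and border macrophage genes in the change of the members was not tested. Of 8 other late neutrophil genes tested 2 rose, Lyz2 (3.58 ± 0.42) and Wfdc21 (2.54 ± 0.40). All 5 tested genes of other early granule proteins and granule processing rose, and 0 of 11 transcription factors of granulocyte development did by edgeR.

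**Figure D3:**
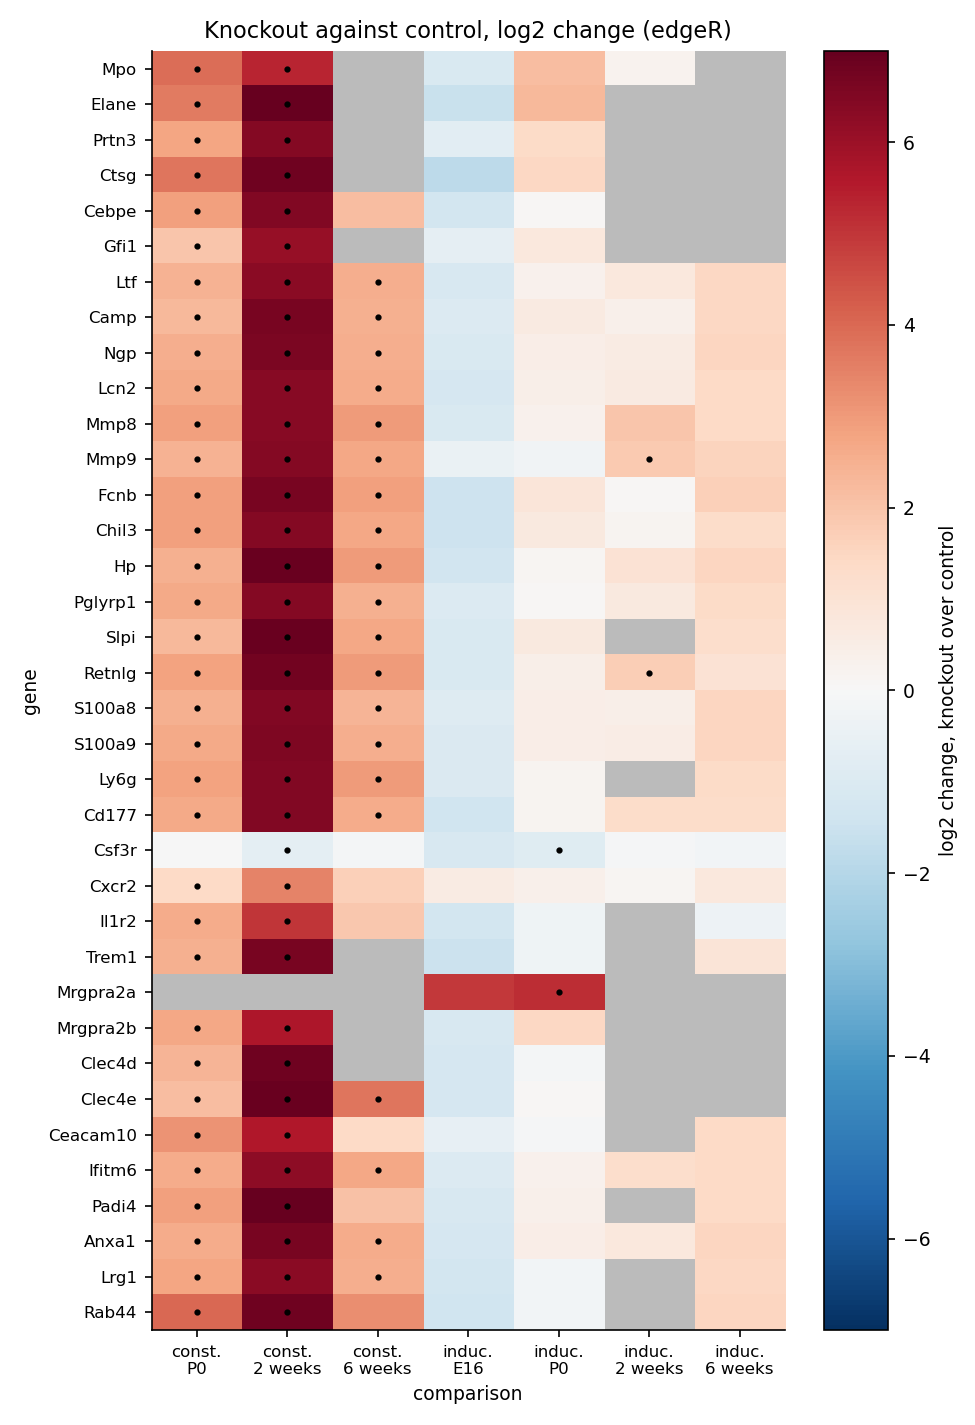
Log2 change of each member, knockout over control, in the knockout comparisons (edgeR), with a dot where the adjusted p was under 0.05 and grey where a gene was not tested. The constitutive columns hold 34, 34 and 20 members called higher, and the inducible columns 0, 1, 2 and 0.

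In the inducible model few members passed. On E16 no gene of the 17594 tested was called by edgeR (0% higher, 0% lower), and so 0 of the 36 members, of which 2 had an unadjusted p under 0.05. Without library 1, which stands against its label, edgeR called 2.31% of genes higher and 1.24% lower. DESeq2 with all libraries called 2.16% and 2.1%, and edgeR with all 14 groups in 1 fit 2.63% and 4.73%. In each of these fits 1 member was higher (Mrgpra2a) and 1 lower (Csf3r). S100a9 was at 1723, 713, 644 and 381 CPM in controls 2, 4, 5 and 6 and at 237, 244 and 904 CPM in knockouts 1, 3 and 8, and its log2 change was -0.99 ± 0.70 (edgeR, adjusted p = 0.588). Mpo was at 19.99, 4.41, 17.5 and 25.8 CPM in the controls and at 4.43, 3.87 and 16.8 CPM in the knockouts, with a change of -1.08 ± 0.74 (0.580). Both genes overlapped between groups. Control 2 was the highest control in most later genes, and their sum was 9274, 3439, 3286 and 2096 CPM in controls 2, 4, 5 and 6. The members' median log2 change was -1.11, against 0.12 over all genes. Csf3r and Mrgpra2a were the members that did not overlap between groups in CPM, and 20.7% of all genes with a mean of at least 1 CPM did not either. Fcnb (-1.47 ± 0.68, adjusted p = 0.419, edgeR) and Cd177 (-1.38 ± 0.68, 0.436) came next by adjusted p among the other members.

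At inducible P0 the early genes were high in some knockouts only. Mpo was at 1.92, 13.5 and 4.41 CPM in controls 54, 55 and 56, and at 48.6, 64.4, 2.57 and 3.10 CPM in knockouts 48, 49, 53 and 57. Elane was at 0, 7.15 and 0.168 CPM in the controls and at 13.9, 30.7, 2.14 and 0.795 CPM in the knockouts. Prtn3 was at 1.26, 4.08 and 1.51 CPM in the controls and at 7.80, 12.3, 1.796 and 0.984 CPM in the knockouts. Knockouts 48 and 49 lay above all controls in these genes, and knockouts 53 and 57 did not. Ctsg was at 0.385, 1.01 and 0.838 CPM in the controls and at 2.69, 3.94, 1.11 and 0.530 CPM in the knockouts, where knockout 53 exceeded the controls too. The log2 changes of Mpo (2.16 ± 1.44, adjusted p = 0.400), Elane (2.29 ± 1.88, 0.496), Prtn3 (1.32 ± 0.82, 0.335) and Ctsg (1.47 ± 0.67, 0.1796) did not pass by edgeR. S100a9 was at 759, 1117 and 292 CPM in the controls and at 793, 1545, 1232 and 344 CPM in the knockouts, with a change of 0.44 ± 0.61 (edgeR, adjusted p = 0.695). Control 56 and knockout 57 had the lowest S100a9 of their groups. Monocyte genes summed to 1067 CPM in control 56 and 3299 CPM in knockout 57, against 4746 to 6780.3 CPM in the other inducible P0 libraries, and their part in these values was not tested.

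Of 17573 genes tested at inducible P0 6.81% were higher and 3.56% lower (edgeR). Of the 36 members 1 was higher, Mrgpra2a, and 1 was lower, Csf3r, with a median log2 change of 0.34. Mrgpra2a, a Mas-related G-protein-coupled receptor gene, was at 0.110, 0.366 and 0.0559 CPM in controls 54, 55 and 56 and at 8.46, 7.94, 6.33 and 4.66 CPM in knockouts 48, 49, 53 and 57. It rose by 5.18 ± 0.55 (edgeR, adjusted p = 0.000416), and it reached the minimum level for testing only in the knockouts. On E16 it was at 0 to 0.265 CPM in the controls and at 0.633, 3.91 and 5.29 CPM in knockouts 1, 3 and 8, a change of 4.93 ± 1.11 (edgeR, adjusted p = 0.149), and no control reached the minimum level there either. It stayed at or under 1.42 CPM in the constitutive model and at or under 0.319 CPM at inducible 2 and 6 weeks. Mrgpra2b, its neighbour on chromosome 7, was at 0.224 to 1.15 CPM in the inducible P0 controls and at 0.757 to 2.15 CPM in the knockouts (1.43 ± 0.64, adjusted p = 0.170, edgeR). Of the 50-base windows of Mrgpra2a transcripts 87.5% also occur in other genes, and 81.2% of those of Mrgpra2b, so how counts were divided between them is uncertain. Slpi, a protease inhibitor, was next by adjusted p (0.68 ± 0.29, 0.150, edgeR).

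**Figure D4:**
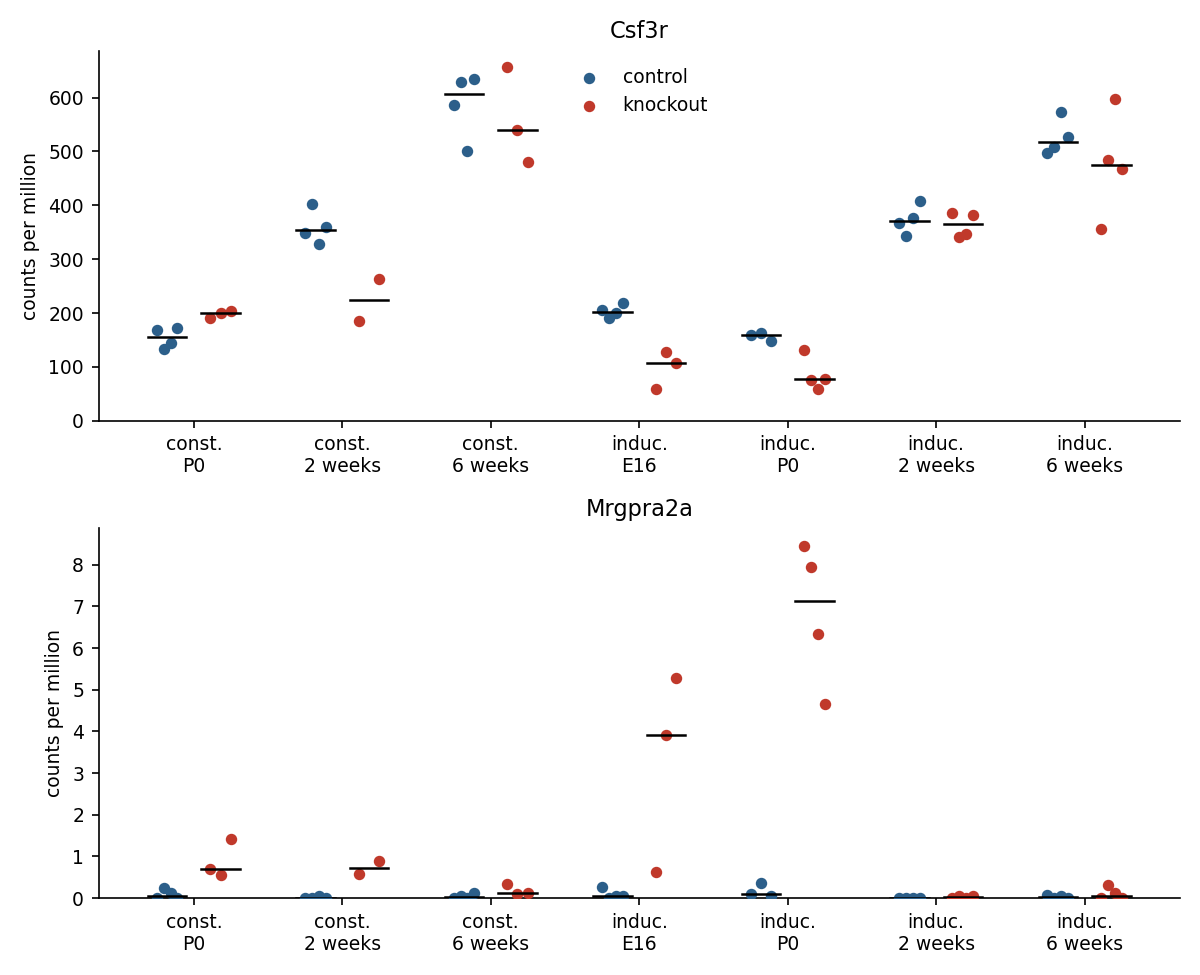
Csf3r (top) and Mrgpra2a (bottom) in each library, in CPM, by model and age (blue control, red knockout, bar the median). Csf3r is highest at 6 weeks, at 356 to 657 CPM over all 6-week libraries, and Mrgpra2a reaches 0.633, 3.91 and 5.29 CPM in the E16 knockouts and 4.66 to 8.46 CPM in the inducible P0 knockouts.

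At inducible 2 weeks 19 members had enough counts to be tested. Of these 2 were higher and 0 lower, against 1.11% and 1.13% of all 13921 genes. Mmp9 was at 0.692, 0.554, 1.38 and 1.81 CPM in controls 1, 2, 3 and 4 and at 2.75, 2.83, 5.04 and 6.27 CPM in knockouts 6, 10, 13 and 16, a rise of 1.83 ± 0.39 (edgeR, adjusted p = 0.0217). Retnlg was at 0.533, 1.85, 0.838 and 1.21 CPM in the controls and at 2.31, 4.09, 3.72 and 5.29 CPM in the knockouts, a rise of 1.74 ± 0.38 (0.0223). No knockout overlapped a control in either gene, at levels of a few CPM. Both calls were lost without control 1, control 3, knockout 13 or knockout 16, that of Mmp9 also without control 2 and that of Retnlg also without knockout 10. Without knockout 6 Mmp8 was called as well. Mmp8, the neutrophil collagenase, was at 0.905, 1.41, 2.22 and 0.275 CPM in the controls and at 1.56, 5.75, 6.36 and 5.83 CPM in the knockouts and did not pass (1.93 ± 0.51, adjusted p = 0.0768, edgeR). S100a9 was at 25.6 to 56.3 CPM in the controls and at 31.96 to 79.6 CPM in the knockouts and did not pass either (0.54 ± 0.37).

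At inducible 6 weeks 0 of 26 members tested were called in either direction by edgeR, against 0.0492% higher and 0.0141% lower of all genes. An unadjusted p under 0.05 was found in 0 members. DESeq2 called 0 members, against 33 genes higher and 15 lower of 19812. Without knockout 6 edgeR called 0 members too, against 4 genes higher and 2 lower of 14480. S100a9 was at 265, 181, 201 and 294 CPM in controls 1, 5, 10 and 11 and at 310.3, 1962, 242 and 152 CPM in knockouts 4, 6, 9 and 12. Ltf was at 149 to 232 CPM in the controls and at 129, 1514, 201 and 101 CPM in the knockouts. Knockout 6 was the highest library of this age in every later gene except Gfi1 and Csf3r. The early genes summed to 1.81 CPM in knockout 6 and to 0 to 0.5257 CPM in the other libraries of this age. Its homeostatic microglia sum, 65053 CPM, lay within the 61784 to 68415 CPM of the controls, and its monocyte sum was 89.4 CPM against 24.3 to 26.8 CPM. The log2 changes of S100a9 and Ltf were 1.48 ± 0.88 and 1.43 ± 0.97 with knockout 6 and -0.030 and -0.34 without it.

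The models were compared by the difference of their knockout effects. At P0 the constitutive effect was greater in 23 of the 36 members and smaller in 0, against 14% and 16.9% of all 19236 genes tested. The difference was 2.87 ± 0.37 for Trem1 (edgeR, adjusted p = 0.000137), 2.46 ± 0.36 for Retnlg (0.000283) and 2.42 ± 0.38 for Hp, which encodes haptoglobin (0.000530). It was 4.25 ± 0.81 for Rab44 (0.00159) and 0.90 ± 0.27 for Csf3r (0.0196). None of the 4 early genes passed by edgeR, with Mpo at 1.79 ± 1.59 (0.418). With no filter on low counts 13 members were called, and with the filter 22 were without the P0 library labelled knockout 68 and 18 without library 76. Of all genes, 2411 of 33476 were higher with no filter, 2470 of 19919 without library 68 and 2632 of 19926 without library 76.

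At 2 weeks the constitutive effect was greater than the inducible one in 28 members and smaller in 1, Csf3r (-0.57 ± 0.19, adjusted p = 0.0297, edgeR), against 16.6% and 14.7% of all genes. Fcnb, a ficolin of granules, differed by 6.51 ± 0.98 (edgeR, adjusted p = 0.000431), Pglyrp1, a peptidoglycan recognition protein of granules, by 5.72 ± 0.87 (0.000446), Cxcr2 by 3.32 ± 0.57 (0.000712) and S100a8 by 6.08 ± 0.96 (0.000829). Without the library labelled knockout 89, which leaves 1 constitutive knockout, Cd177, Ceacam10, Mmp8, Mmp9, Mpo and Mrgpra2b lost their calls. The call of Csf3r was lost without constitutive control 78 or knockout 80 and without inducible control 2, knockout 6 or knockout 16.

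Within the constitutive model the effect at 2 weeks exceeded that at P0 in 29 members and fell short in Csf3r (-0.73 ± 0.23, adjusted p = 0.0265, edgeR), against 21.7% and 9.07% of all 19997 genes. Clec4d differed by 4.39 ± 0.66 (edgeR, adjusted p = 0.000131), Trem1 by 4.06 ± 0.71 (0.000543) and Prtn3, the 1 early gene to pass with all libraries, by 3.57 ± 0.81 (0.00317). Most of these calls were lost without the 2-week library labelled knockout 89, a fit with 1 knockout at that age. The count of members fell to 19 without P0 knockout 73. It was 21 without the P0 library labelled knockout 68, where Ctsg passed too, and 27 without P0 library 76. Of all genes, 3093 of 19612 were higher without P0 knockout 73, 4069 of 19682 without library 68 and 4126 of 19700 without library 76. Csf3r was not called without P0 control 71, P0 knockout 76 or 2-week knockout 80. Within the inducible model 1 member passed, Csf3r, whose effect at 2 weeks lay above that at P0 by 0.82 ± 0.23 (edgeR, adjusted p = 0.0488), against 2.67% of genes higher and 1.71% lower. Of the 15 fits that each left out 1 library, only that without P0 knockout 48 kept this call. Retnlg, Mmp9 or Mmp8 was called in some of them.

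Most members tested were lower at 2 weeks than at P0 in the inducible controls. In the constitutive controls fewer were, a share nearer to that of all genes. These comparisons use the same control libraries as those above. Animals older than newborns were perfused, so age and perfusion cannot be told apart here or in the other comparisons of P0 with later ages. Erythroid genes summed to 331 to 714 CPM in the inducible P0 controls and to 0.605 to 16.7 CPM in those of 2 weeks. Monocyte genes summed to 1067 to 4951 CPM and to 27.4 to 32.9 CPM, in the same order. The part of these genes in the change of the members was not tested. In the inducible model 29 of 30 members tested were lower at 2 weeks and 1, Csf3r, was higher, against 32.7% and 21.9% of all genes (edgeR). S100a9 was at 759, 1117 and 292 CPM in the P0 controls and at 25.6 to 56.3 CPM in the 2-week controls, a change of -4.09 ± 0.51. Retnlg was at 75.7 to 145 and at 0.533 to 1.85 CPM, a change of -6.41 ± 0.33. Neither gene overlapped between the ages. Hp changed by -6.02 ± 0.36 and Slpi by -6.28 ± 0.45. In the constitutive model 14 of 30 were lower and 1, Csf3r, was higher, against 36.6% and 26.7%. There Clec4d (-5.47 ± 0.56), Il1r2, the decoy receptor for interleukin 1 (-5.06 ± 0.59), and Cxcr2 (-2.32 ± 0.28) fell, and S100a9 did not pass (-1.79 ± 0.74, adjusted p = 0.0745, edgeR). S100a8 and S100a9 were called lower by DESeq2 (S100a9 adjusted p = 0.0130) and by edgeR without 2-week control 81 (0.0253). Members at few counts at 2 weeks could reach the minimum level for testing only through the P0 controls. Slpi was at 2 to 8 counts in the inducible 2-week controls and Clec4d at 0 to 3 in the constitutive ones. For such members being tested already required a difference, and they enter the counts of members tested and called above.

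From 2 to 6 weeks 22 of 24 members tested rose in the inducible controls, such as Lcn2 (2.69 ± 0.14), Chil3, a chitinase-like lectin (2.84 ± 0.17), Camp (2.20 ± 0.15) and S100a9 (2.61 ± 0.28). Cxcr2 was the 1 that fell (-1.86 ± 0.25), against 8.13% higher and 8.98% lower of all genes. Padi4 was at 1 to 5 counts and Trem1 at 0 to 5 counts in the inducible 2-week controls. Such members reached the minimum level for testing only in the 6-week controls. For them being tested already required a difference, and they enter the count of members tested. In the constitutive controls 1 of 24 rose, Csf3r, and 0 fell by edgeR, against 8.8% and 8.93%, with S100a9 at 0.64 ± 0.67. Trem1 or Cxcr2 was called lower there when 1 of a pair of 6-week controls was left out, and by DESeq2 Mpo was. In the inducible controls Mpo was called lower too without 2-week control 4 or any 1 of the 6-week controls. Between E16 and P0 0 of 35 members passed by edgeR in the inducible controls, against 0.0464% higher and 0.0116% lower of all genes. An unadjusted p under 0.05 was found in 4 members. DESeq2 called 1 member higher, Chil3, against 242 of 20270 genes. Without E16 control 2 edgeR called 2 members, Retnlg and Trem1, higher, against 61 of 16947 genes.

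Csf3r rose with age after birth. In the constitutive controls it was at 132 to 173 CPM as newborns. The 2-week controls had 329 to 402 CPM, and those of 6 weeks 502 to 634 CPM. In the inducible controls it was at 191 to 218 CPM on E16, and P0 controls had 149 to 162 CPM, the 2-week ones 344 to 409 CPM and those of 6 weeks 498 to 573 CPM. Neighbouring ages did not overlap in either model, and P0 was the lowest age in both. From P0 to 2 weeks it rose by 1.51 ± 0.11 in the constitutive controls (edgeR, adjusted p = 7.37e-08) and by 1.47 ± 0.10 in the inducible controls (4.90e-07), and from 2 to 6 weeks by 0.67 ± 0.09 and 0.43 ± 0.09.

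In inducible knockouts Csf3r was lower at P0, at 131, 76.1, 58.3 and 77.96 CPM in knockouts 48, 49, 53 and 57 against 149 to 162 CPM in the controls. Its log2 change was -0.87 ± 0.21 (edgeR, adjusted p = 0.0256), and the call was lost without control 54, control 55 or knockout 49. On E16 it was at 58.6, 127 and 107 CPM in knockouts 1, 3 and 8 against 191 to 218 CPM, a change of -1.14 ± 0.29 that did not pass (0.186). Without E16 library 1, which stands against its label, both Csf3r and Mrgpra2a passed. At 2 weeks Csf3r was at 341 to 386 CPM in the knockouts and did not pass (-0.11 ± 0.09).

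The proportions among the members were read as counts of each gene per 100 counts of S100a9 in the same library, a ratio that a common change of all members leaves as it is. No test was made on these ratios. Of the 35 other members the knockout range overlapped the control range in 33 at constitutive P0, 32 at 2 weeks and 31 at 6 weeks. In the inducible model, 34 members overlapped at 2 weeks and 33 at each other age. The same reading was made over all genes with a mean of at least 1 CPM. Of them 11.4% overlapped at constitutive P0, 3.39% at 2 weeks and 6.12% at 6 weeks, and at least 97.6% at each inducible age. S100a9 itself separated knockouts from controls at each constitutive age, so dividing by it moves apart genes that did not change with it. In CPM 45.5%, 40.7% and 76.7% of the same genes overlapped at the constitutive ages. The low shares thus follow largely from the divisor, and no conclusion is drawn from setting the members against them. Csf3r lay below the controls at each constitutive age, and Cxcr2 at P0 and 2 weeks.

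Between P0 and 2 weeks fewer of the members' ranges overlapped. From P0 to 2 weeks 22 of 35 overlapped in the constitutive controls, with Ltf, Camp, Ngp, Lcn2, Fcnb, Chil3 and Csf3r higher and Hp, Slpi, Retnlg, Il1r2, Clec4d and Clec4e lower at 2 weeks. In the inducible controls 17 overlapped, and in the constitutive knockouts 11. Of all genes 45.1%, 11.6% and 24.7% overlapped in these comparisons, in the same order. In CPM 39.4%, 41.5% and 27.4% did. S100a9 itself separated the ages in each comparison, so the divisor bears on these shares too. Groups of fewer libraries have narrower ranges, which bears on such counts. Ltf was at 24.4 to 49.01 counts per 100 S100a9 counts in the constitutive P0 controls and 26.4 to 30.2 in the knockouts, and at 69.8 to 116 and 72.1 to 97.9 at 2 weeks. Ngp was at 37.7 to 75.6 and 45.7 to 63.9 at P0, and at 107 to 146 and 123 to 153 at 2 weeks. Both lay higher at 2 weeks than at P0 in controls and in knockouts. Retnlg was at 17.4 to 22.1 and 21.2 to 22.4 at P0, and at 3.82 to 7.74 and 7.78 to 8.63 at 2 weeks. Il1r2 was at 4.29 to 11.5 and 4.90 to 6.998 at P0, and at 0 to 3.12 and 0.197 to 0.300 at 2 weeks. Both lay lower at 2 weeks in controls and in knockouts.

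**Figure D5:**
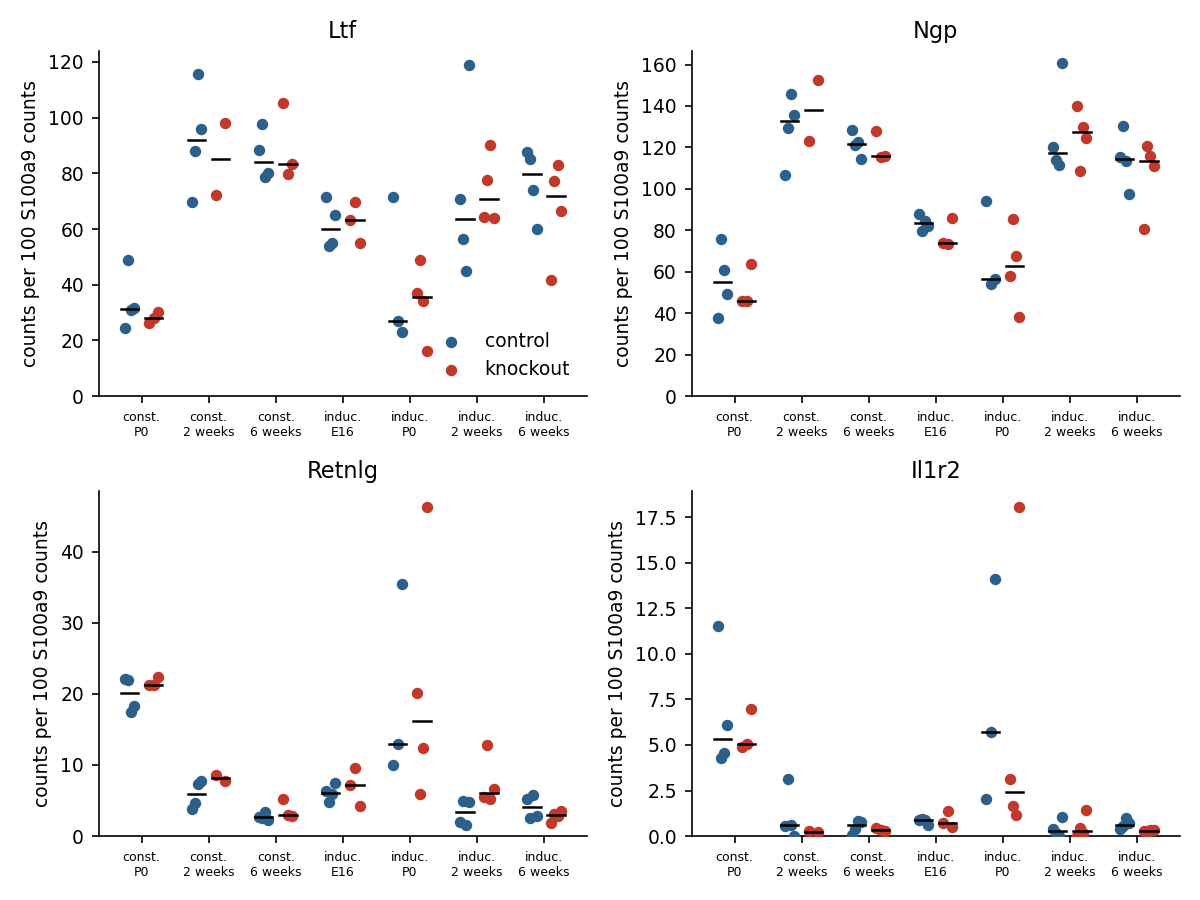
Ltf, Ngp, Retnlg and Il1r2 as counts per 100 S100a9 counts of the same library, by model and age (blue control, red knockout, bar the median). In the constitutive model Ltf and Ngp lie higher at 2 weeks than at P0 and Retnlg and Il1r2 lower, in both genotypes.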

How the data were processed

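Gene counts, CPM and log2 values of 50 libraries were deposited by the authors. Per the submitters' processing notes, the tools were CASAVA 1.8.2, STAR 2.5.2b, featureCounts 1.5.1 (Subread) and limma 3.28.21, with GRCm38 as the build. Annotation release: not given in the sources used here. Libraries were made with the SMARTer v4 and Nextera XT kits, per the labels' protocols, which do not mark strand. Mpo, Prtn3 and Gfi1 share exon bases with another gene, and Chil3 shares 26.9% of its 50-base windows with others, so their counts can hold reads of both. The deposited CPM values equal the count over the library total. The deposited log2 table holds 22 of the 36 members and was not used for results.

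Tests used the deposited counts in R 4.3.3 with edgeR 4.0.16 (filterByExpr, TMM, quasi-likelihood with robust=TRUE, the compared groups only, Benjamini-Hochberg over all genes tested, threshold 0.05). Each standard error was taken from the log2 change and F. The fits were tested on simulated data. Alternatives were DESeq2 1.42.0, RLE scaling, no filter, all 14 groups in 1 fit, and each library left out. The members and lists were chosen with earlier results of these data known. By rule, every member is accounted for, the early genes, Cebpe, Gfi1, S100a8, S100a9, Ltf, Camp, Ngp, Ly6g, Csf3r, Cxcr2 and Rab44 are given by library where described, the 3 others with the smallest adjusted p and those against the majority are named, and up to 2 called genes of another list. Gene positions are from GENCODE vM21. Intervals and floors cover counting error only, and 3 counts are 0.101 to 0.271 CPM.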

Additional observations from a re-analysis of the deposited data

Results flagged for a closer look

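Libraries whose gap to the nearest other library, over the range of their group, passed Dixon's 95% critical value were looked at in groups of 4. The sums of the early and later genes and the genes followed by library gave 148 such checks, and 22 passed. Chance gives about 1 in 20 only for independent, normally distributed values. Here the sums hold the single genes, and some groups are nearly all at 0 counts. No conclusion on chance is drawn from the number. Of these, 12 were in knockout 6 of the inducible 6-week group. It had 1.81 CPM of summed early genes and 10531 CPM of summed later genes. Its single genes were Elane at 1.65, Cebpe at 2.77, S100a8 at 1598, S100a9 at 1962, Ltf at 1514, Camp at 552, Ngp at 2368, Ly6g at 37.8, Cxcr2 at 12.98 and Rab44 at 7.07 CPM. In the same group Mpo was at 0.0337 CPM in knockout 12. On E16 control 2 was apart in Ltf (1230.4 CPM) and control 4, the low one, in summed early genes (6.61 CPM). At inducible P0 knockout 57 was apart in Cxcr2 (146 CPM). The others were at low levels. At inducible 2 weeks Cebpe was at 0.185 and Rab44 at 0.677 CPM in control 2, and Gfi1 at 0.107 CPM in control 1 and 0.270 CPM in knockout 16. At 6 weeks Gfi1 was at 0.5257 CPM in inducible control 11, and Rab44 at 0.856 CPM in 1 constitutive control.

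Knockout effects differed between models or ages, by the test of the difference (edgeR), in these numbers of members. At P0 23 had a greater constitutive effect. At 2 weeks 28 had a greater and 1 a smaller constitutive effect. The constitutive effect was greater at 2 weeks than at P0 in 29 and smaller in 1, and the inducible effect was greater at 2 weeks in 1.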

How the results depend on the processing

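Under RLE scaling each count of members called stayed within 1.5 times of that reported. On E16 DESeq2 called 1 member higher and 1 lower, as did all 14 groups in 1 fit. DESeq2 also gave 4 higher for the inducible effect at 2 weeks less P0 (931 of all 15192 genes). It gave 1 higher for inducible controls at P0 against E16 (242 of 20270). At 6 against 2 weeks it gave 1 lower for constitutive controls (1533 of 16471) and 2 lower for inducible controls (1481 of 16125). Without a filter on low counts edgeR gave 2 lower for inducible controls at 6 against 2 weeks (1453 of 26347). The constitutive less inducible effect at P0 then had 13 higher. Inducible 2 weeks had 6 higher without the filter, and 0 with all 14 groups in 1 fit. Of all genes, 2411 of 33476 were higher for the constitutive less inducible effect at P0 without the filter. At inducible 2 weeks 485 of 26654 were without the filter, and 66 of 21417 with all 14 groups in 1 fit. With 1 library left out, higher calls ran from 22 to 35 at constitutive 2 weeks, 0 to 1 on E16, 0 to 3 at inducible 2 weeks, 9 to 31 for the constitutive effect at 2 weeks less P0, 0 to 2 for the inducible one, and 0 to 2 for inducible controls at P0 against E16. Lower calls ran from 0 to 1 on E16, 0 to 1 at inducible P0, 0 to 1 for constitutive less inducible at 2 weeks, 0 to 1 for the constitutive effect at 2 weeks less P0, 0 to 1 for constitutive controls and 1 to 2 for inducible controls at 6 against 2 weeks. The change of Csf3r at constitutive P0, near 0, was 0.22 with all 14 groups in 1 fit and -0.12 to 0.061 with 1 library left out. With 1 library left out the inducible 6-week change ran from -0.030 to 1.81 for S100a9 and -0.34 to 1.76 for Ltf, lowest without knockout 6. Elane and Gfi1 at constitutive P0 lost their calls without the filter, and Gfi1 with all 14 groups in 1 fit. Of 1207 alternative values of single members 1134 kept direction and side of the threshold, 52 lost and 14 gained the call, and 7 turned direction. The cause was not tested in any case. No paired analysis was possible because animal numbers name different animals and the groups compared share fewer than 2 of them.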
